A study of Rattus norvegicus with 15 samples.

Results

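Mammary tumours of rats raised on zinc-deficient chow were compared with those of rats raised on chow with adequate zinc. The comparison holds 10 of the series' 15 tumours, 5 of each diet, chosen by the source named in their labels. All animals were female Sprague-Dawley rats. Their dams, 16 in each group, ate chow with 3 mg of zinc per kg (deficient) or 35 mg per kg (adequate) from day 10 of gestation, and the daughters, weaned on day 21, stayed on it until day 51. Each daughter then received a single gavage of 50 mg/kg of the carcinogen 7,12-dimethylbenz[a]anthracene (DMBA) and ate adequate chow afterwards, so the rats of both groups shared the carcinogen and the later diet. Tubular or papillary tumours were taken at 180 days. The labels call the adequate group a negative control; it was read as the adequate diet and is called control here. One label field names mammary gland at day 21 in place of tumours, and the other fields were followed. The last 5 tumours, from rats raised on 180 mg of zinc per kg and otherwise treated alike, entered the fit and are shown for reference. Nothing in the labels ties a tumour to an animal or litter, so a p-value here measures spread among these tumours, which may in part be technical.

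Zinc is held in the active sites of many enzymes and in zinc-finger transcription factors. Cells keep its level steady with exporters of the Slc30a family, importers of the Slc39a family and metallothioneins, small cysteine-rich proteins that bind the metal. The sensor Mtf1 binds zinc and activates the metallothionein genes and Slc30a1 through short promoter sequences called metal response elements. DMBA is turned into DNA-damaging metabolites by enzymes that the aryl hydrocarbon receptor controls, and the tumours it causes in rats are mostly adenocarcinomas whose growth depends on hormones.

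A level below is the log2 signal of a probe minus the 75th percentile of its own array, so a level of 0 is the signal of a gene at that percentile. A gene is called bright where its probe stood well above background on all 10 arrays, which held for 5427 of the 8378 genes with a tested probe. The arrays differed in brightness, with 13854 to 24009 of 43379 spots well above background, and deficient 4, control 2 and deficient 1 were the dimmest. Deficient 3 and deficient 1 correlated least with the other arrays over bright probes (mean Pearson r of 0.936 and 0.945, against 0.950 to 0.967 for the other 8). Markers of epithelium matched the labelled tissue: Epcam, Krt8, Krt18, Krt19, Gata3 and the basal genes Krt5, Krt14 and Tp63 were bright, while the luminal factor Foxa1 was well above background on 4 of 10 arrays. RNA of other cells was present too: the macrophage genes Cd68 and C1qa and the T cell gene Cd3d were bright, and the fat cell gene Adipoq was well above background on 4 of 10 arrays. In these bulk samples, fewer cells of a type and less RNA per cell cannot be told apart.

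No probe was called between the diets. limma called 0 of 21011 tested probes at an adjusted p under 0.05 (0.0%), the lowest adjusted p was 0.444, and every named gene had an adjusted p of 0.987 or more. Nor were any of the 11560 bright probes called (0.0%). Before adjustment 822 probes (3.91%) had a p under 0.05, fewer than the 1051 that chance alone would give. Among the 5427 bright genes, 184 (3.39%) reached that unadjusted level, 70 of them higher in deficient tumours (1.29%) and 114 lower (2.1%). The differences described below are therefore sizes with intervals, and none of them passed the test. For 4824 bright genes (88.9%) the 95% interval of the log2 difference lay within -1 to 1, so a change of more than 2-fold in either direction lay outside it. The median half-width of that interval was 0.43, a factor of 1.34, for bright genes and 0.51 for all tested probes.

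Differences of at least 1 log2 unit were seen for 28 bright genes (0.516%), 18 higher and 10 lower in deficient tumours, and the 95% interval excluded 0 for 16 of them. The widest on the lower side were Penk (-1.89), the imprinted growth factor gene Igf2 (-1.45, interval from -4.14 to 1.23), Scgb1c1 (-1.44) and the cysteine dioxygenase gene Cdo1 (-1.30). In Cdo1 deficient 3 was at -0.84, below the lowest of the other tumours (0.20). On the higher side were Capns2 (2.10), the iron carrier gene Tf (1.46), Hbb-b1 (1.40), Hba-a3 (1.39) and Csap1 (1.32). The intervals of Hba-a3 (from -0.02 to 2.79) and Csap1 (from -0.77 to 3.41) crossed 0. Csap1 differed by 0.09 without the 3 dimmest arrays. Over all bright genes 45.1% were higher in deficient tumours, and the median log2 difference was -0.02.

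**Figure D1:**
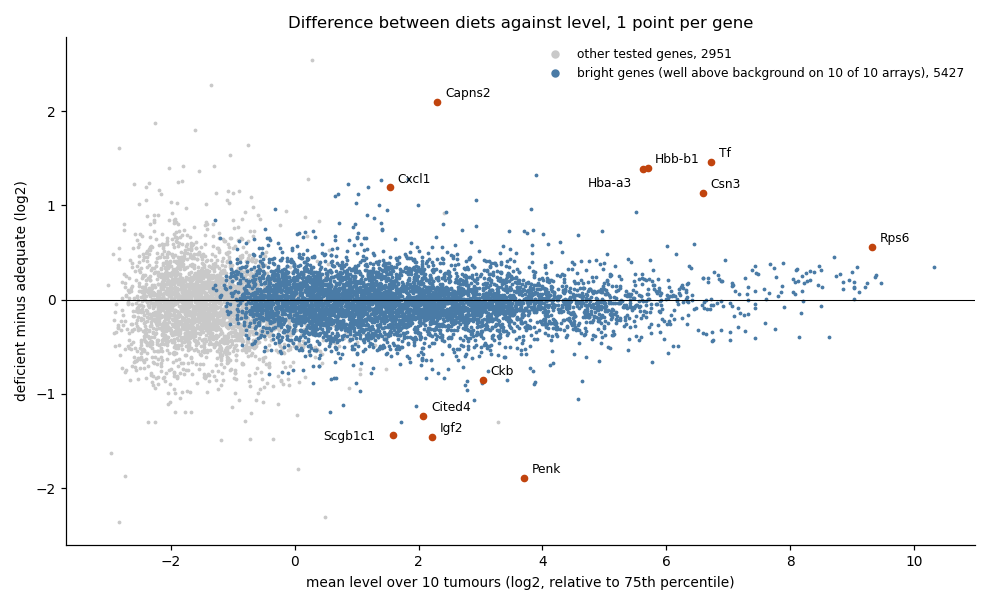
Log2 difference, deficient minus adequate, against the mean level over the 10 tumours (log2, with the array's 75th percentile at 0), 1 point per gene; bright genes are blue, other tested genes grey and labelled genes red. Most bright genes lie near 0, Penk (-1.89) and Capns2 (2.10) lie farthest out among them, and the spread is wider for dim genes.

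Genes that handle zinc were examined first, since zinc was what the diets changed. The zinc exporter gene Slc30a1 had levels of -0.31, -0.36, -0.98, -0.46 and -0.64 in deficient tumours and of -0.29, -0.12, 0.18, -0.06 and -0.19 in control tumours. All deficient tumours lay below all control tumours, by a gap of 0.03. The log2 difference was -0.46 (95% interval from -0.79 to -0.12, adjusted p = 0.987 in limma), and it was -0.12 with normexp background correction and -0.10 with the values the authors deposited. The gene is dim for a bright one, at a level below the 75th percentile of the array in 9 of 10 tumours.

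The metallothionein gene Mt1 had levels of 4.80, 4.23, 6.27, 5.20 and 4.12 in deficient tumours and of 4.32, 2.80, 3.11, 4.65 and 6.33 in control tumours. Its relative Mt2A had levels of 3.88, 3.15, 5.76, 4.45 and 3.13 against 3.38, 2.26, 2.43, 3.59 and 5.04. Both genes were highest in deficient 3 and control 5 and lowest in control 2 and control 3, and the diets overlapped. The log2 differences were 0.68 for Mt1 (interval from -0.86 to 2.23) and 0.73 for Mt2A (from -0.64 to 2.11), so both directions lie within the intervals. Without the 3 dimmest arrays they were 0.27 and 0.40. The sequences around the starts of these 3 genes are shown because Mtf1 acts there; they come from RefSeq (build GRCr8) and run from 250 bases before to 50 bases after the start, 5′ to 3′ on the strand of the gene, with matches to the metal response element in capitals. The element was searched as TGCACNC and TGCGCNC on both strands, so some capitals show its reverse complement.
Mt1 (chr19:10832926-10833225, minus strand): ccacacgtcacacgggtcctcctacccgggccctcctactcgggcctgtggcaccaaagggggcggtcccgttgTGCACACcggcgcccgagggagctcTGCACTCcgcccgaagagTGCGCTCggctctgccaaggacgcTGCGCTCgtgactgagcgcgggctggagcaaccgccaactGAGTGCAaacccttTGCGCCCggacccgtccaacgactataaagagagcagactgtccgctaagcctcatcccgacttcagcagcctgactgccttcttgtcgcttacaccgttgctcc
Mt2A (chr19:10838659-10838958, minus strand): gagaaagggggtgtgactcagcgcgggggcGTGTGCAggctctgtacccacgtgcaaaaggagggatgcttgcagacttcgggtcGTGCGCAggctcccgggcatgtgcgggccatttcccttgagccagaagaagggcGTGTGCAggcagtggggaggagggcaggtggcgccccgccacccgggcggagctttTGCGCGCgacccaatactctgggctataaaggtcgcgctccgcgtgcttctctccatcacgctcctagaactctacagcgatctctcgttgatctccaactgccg
Slc30a1 (chr13:106021769-106022068, plus strand): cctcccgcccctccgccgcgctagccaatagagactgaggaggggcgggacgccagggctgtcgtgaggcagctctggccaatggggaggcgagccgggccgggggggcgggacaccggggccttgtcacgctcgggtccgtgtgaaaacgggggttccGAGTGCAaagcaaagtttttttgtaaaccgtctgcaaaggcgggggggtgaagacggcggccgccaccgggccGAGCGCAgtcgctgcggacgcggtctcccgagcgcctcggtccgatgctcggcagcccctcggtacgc
Mt1 held 6 matches, 5 of them on the strand shown, Mt2A held 4 and Slc30a1 held 2. Of 33469 promoters of the same length, 24.2% held at least 1 match, 6.36% at least 2, 0.439% at least 4 and 0.123% at least 5. A match describes letters in the window and says nothing on binding in these tumours.

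The list of zinc handling genes as a whole showed no common direction. Of 29 genes listed, Slc30a1, Mt1 and Mt2A included, 20 were tested and 10 were bright. Of the bright ones 6 were higher in deficient tumours, with a median log2 difference of 0.11. That median was 0.01 without deficient 5 and 0.18 without control 2, and 5 of the 10 were higher under quantile normalization and in the deposited values. The importer gene Slc39a6, known as an oestrogen-responsive gene in breast cancer, differed by -0.38 (interval from -0.85 to 0.09), and Slc39a7 and Slc39a14 by -0.33 and 0.22. Near background on some arrays, Slc30a2, which moves zinc into milk, differed by -0.63 and Mtf1 by 0.65, each with an interval across 0.

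**Figure D2:**
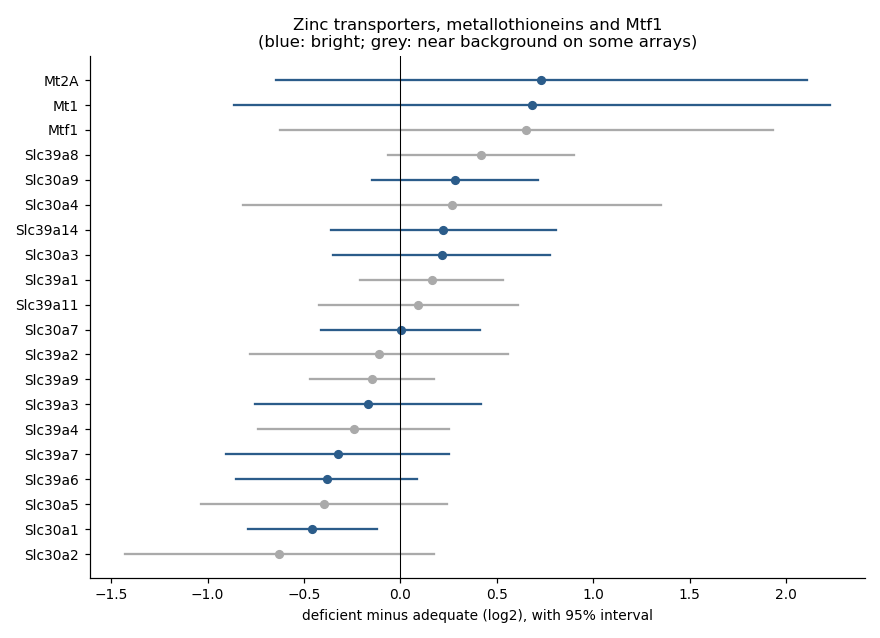
Log2 difference, deficient minus adequate, with its 95% interval for the 20 tested genes of zinc handling, n = 5 tumours a diet; blue genes were bright and grey genes were near background on some arrays. The interval of Slc30a1 (-0.79 to -0.12) does not reach 0, and those of Mt1 and Mt2A are the widest among the bright genes.

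The bright gene with the smallest p was Penk, which encodes proenkephalin, the precursor of the enkephalin opioid peptides. Its levels were 1.14, 3.49, 3.10, 3.50 and 2.55 in deficient tumours and 3.85, 5.23, 5.08, 4.95 and 4.11 in control tumours. The groups did not overlap, with 0.35 between the highest deficient and the lowest control tumour, and the supplemented tumours (4.11 to 6.41) all lay above the deficient ones. Penk differed by 3.70-fold, and by -2.09 to -1.49 on the log2 scale when 1 tumour at a time was left out. Without the 3 dimmest arrays its log2 difference was -1.45. Of 8 bright genes of opioid peptides, their receptors and their processing, Penk included, 3 were higher, and the median was -0.17, a value that was -0.01 without control 4 and -0.33 without control 3. The processing enzyme gene Cpe differed by -0.78, Pomc by -0.21, and the opioid growth factor receptor Ogfr and its relative Ogfrl1 by -0.42 and 0.80.

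The brain-type creatine kinase gene Ckb, whose enzyme buffers ATP, had levels of 2.02, 2.91, 2.62, 2.90 and 2.64 in deficient tumours. In control tumours it had 2.89, 3.58, 3.72, 3.65 and 3.49. Control 1 was the only control tumour within the deficient range, and the difference was -0.85 (interval from -1.32 to -0.37). The tight junction adhesion molecule gene F11r had levels of 0.35, 0.66, 1.18, -0.02 and 0.83 against 1.36, 1.44, 1.40, 1.40 and 0.88. Its control tumours other than control 5 lay above every deficient tumour; the difference was -0.70, or -0.37 without the 3 dimmest arrays, of which 2 were deficient. Pld3, a lysosomal phospholipase family member, differed by -0.83 with overlapping groups.

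Akr7a2, an aldehyde reductase, had levels of 1.49, 1.59, 1.61, 1.80 and 1.90 in deficient and of 2.03, 2.37, 2.12, 2.06 and 2.22 in control tumours. The groups did not overlap, and the difference was -0.48 (interval from -0.78 to -0.18). The survival factor gene Bcl2l1 had levels of 2.19, 2.47, 2.48, 2.09 and 2.04 against 2.56, 2.95, 2.89, 2.74 and 2.57. These groups did not overlap either, and the difference was -0.49; of its other 2 probes, 1 differed by -0.47 and 1 by 0.05. Haptoglobin (Hp), which binds free haemoglobin, had levels of -0.89, -0.21, 0.26, 0.16 and -0.08 against 0.60, 0.71, 1.15, 0.30 and 0.89. Its groups were 0.04 apart, with a difference of -0.88, or -0.48 with normexp. The remaining bright genes with the smallest p on this side were Cited4, a transcriptional co-regulator (-1.23), Mogat1, an enzyme of triglyceride synthesis (-1.19), the copper chaperone of superoxide dismutase Ccs (-0.51), Trim45 (-0.52) and Ilvbl (-0.52). For Cited4 the groups overlapped and the difference was 0.44 within the slide where it was highest.

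Bright genes higher in deficient tumours were led by Rufy3, at 0.71. Its levels were 0.82, 0.34, 1.00, 0.16 and -0.19 in deficient tumours and 0.05, -0.59, -0.37, -0.26 and -0.23 in control tumours, so that 1 deficient tumour lay within the control range. The splicing kinase gene Clk4 had levels of 2.27, 2.81, 2.88, 2.74 and 2.36 against 2.75, 1.70, 1.45, 1.91 and 1.90. Only control 1 lay within the deficient range, and the difference was 0.67. The chemokine gene Cxcl1, which draws neutrophils, had levels of 2.09, 1.61, 3.54, 1.73 and 1.67 against 1.57, 0.41, -0.16, 1.90 and 0.95. Its difference was 1.19, deficient 3 standing above the rest, and 0.84 to 1.44 when 1 tumour at a time was left out. It was 0.78 with normexp and 0.76 under array weights. The supplemented tumours averaged 2.30 ± 0.37 in Cxcl1 (SD, n = 5). Of 14 bright genes of chemokines and inflammation, Cxcl1 included, 7 were higher, with a median of 0.01.

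The rest of the bright genes chosen on the higher side were Cast, which encodes the calpain inhibitor calpastatin (0.58, or 0.27 with normexp), Ogfrl1 (0.80), Hbb-b1 (1.40), Aplf, a DNA end-joining factor (0.64), the hypoxia-inducible factor gene Epas1 (0.72), Utp3 (0.50), Ccdc127 (0.38), Ap3d1 (0.56) and Trmt13 (0.46). The groups overlapped for each of these 9 genes. Dimmer genes with the smallest p were Tmcc3 (1.15), Ahsp (1.26), Wipi1 (0.68) and Ppp1r9a (0.77) on the higher side and Ift22 (-0.99), Nipa2 (-0.90), Gpr137 (-0.78) and A3galt2 (-0.74) on the lower side. These 8 genes lay near background on some arrays, each of the lower ones being well above it in only 2 of 5 deficient tumours. Under normexp the higher ones differed by 0.30 to 0.48 and the lower ones by -0.29 to -0.12. In the deposited values these ranges were 0.25 to 0.40 and -0.38 to -0.20. Both settings draw the differences of dim genes towards 0, as described for Slc30a1.

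**Figure D3:**
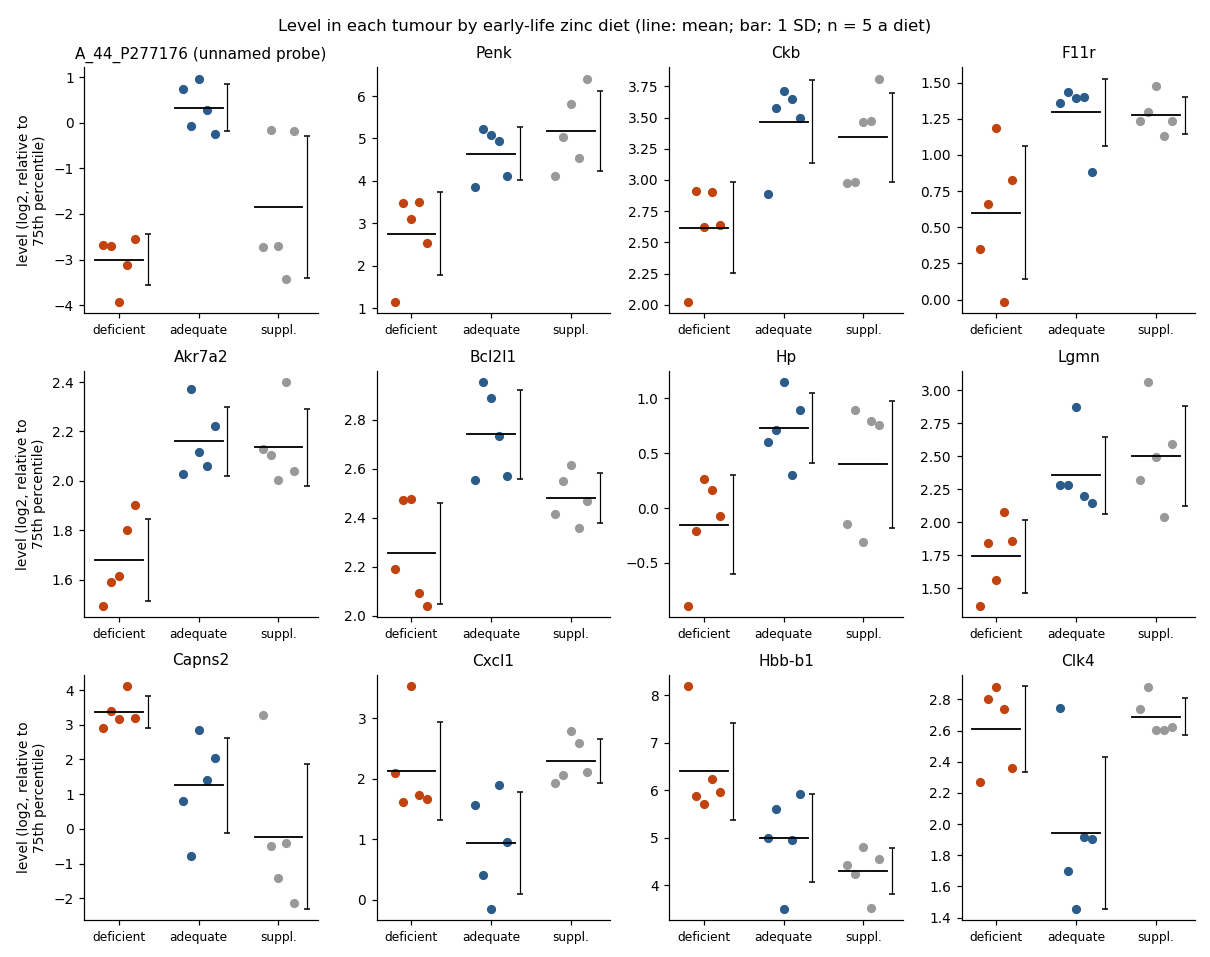
Level (log2, with the array's 75th percentile at 0) in each of 5 tumours from deficient, adequate and supplemented rats for 11 bright genes and 1 unnamed probe; lines are means and bars 1 SD. Penk, Akr7a2, Bcl2l1, Hp, Lgmn and the unnamed probe are lower, and Capns2 is higher, in every deficient tumour than in every control tumour, with gaps of 0.04 to 2.30.

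For 30 bright genes (0.553%) the levels of the 2 diets did not overlap, against 0.39% of all tested probes. Of the 30, 9 were higher in deficient tumours (0.166%) and 21 lower (0.387%). With 5 tumours a diet some genes separate by chance alone, and neither share was tested against that, so the genes below are a description. Beside the genes above, the lower ones held the matrix-associated gene Aebp1 (-0.78), the lysosomal protease legumain Lgmn (-0.61), the glycolytic enzyme Tpi1 (-0.57), the coagulation inhibitor Tfpi (-0.54), Wnt4, a progesterone-responsive ligand of the mammary epithelium (-0.48), Mea1 (-0.40), Tmbim6, an inhibitor of cell death in the endoplasmic reticulum (-0.39), and Pgls, of the pentose phosphate pathway (-0.37). The other 7, Tmem120a, S100a1, Hdgfl2, Nudt14, Slc25a25, Nit1 and Ndfip1, differed by -0.51 to -0.18. Wnt4 owed part of its difference to control 5, at 2.54 where the other control tumours had 1.40 to 1.48, and it was -0.26 without that tumour. The gap between the diets was at most 0.16 for any of the lower genes other than Penk.

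The largest of the higher ones was Capns2, a small calpain subunit gene. Its levels were 2.91, 3.39, 3.16, 4.12 and 3.19 in deficient tumours and 0.80, -0.78, 2.83, 1.40 and 2.03 in control tumours. Deficient tumours lay close together and control tumours were spread from -0.78 to 2.83, the nearest pair being 0.08 apart. The difference was 2.10 (interval from 0.37 to 3.82), or 1.48 without the 3 dimmest arrays. Vps4a, an ATPase of membrane scission (0.52), and the zinc-finger gene Zfp217 (0.47) followed, and the others were Borcs7 (0.40), Cdc5l (0.34), Prkra (0.29), Ptprz1 (0.23), Taf1c (0.18) and Fam13b (0.18). For Vps4a, Taf1c and Fam13b at least 1 other probe of the gene differed in the opposite direction.

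One probe without a gene name, A_44_P277176, stood apart from all others and was singled out after its values were seen. Its levels were -2.69, -2.71, -3.93, -3.13 and -2.55 in deficient tumours and 0.74, -0.07, 0.97, 0.28 and -0.25 in control tumours. The gap of 2.30 between the diets was the widest of any tested probe. The next on the lower side was 0.35, and the widest on the higher side was 0.50. Supplemented tumours fell on both sides, 2 at -0.17 and -0.18 and 3 from -3.44 to -2.70. Only 2 of the deficient tumours, but all 5 controls, had it well above background, so some deficient levels lie near background; its difference was -3.34 (interval from -4.53 to -2.15, adjusted p = 0.444 in limma), and -1.24 with normexp. limma called it only when the fit was limited to the 10 tumours of the 2 diets (adjusted p = 0.0032). In the other 19 settings that tested it the limma adjusted p ran from 0.261 to 1.000.

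Gene lists were read by their bright members. Of 33 lists with at least 5 bright members, 22 had a median log2 difference below 0 and 11 above 0, between -0.34 and 0.43; the median of all bright genes was -0.02. In all 40 lists with a bright member the mean levels of the 2 diets overlapped, and 0 members were called. The median kept its sign whichever tumour was left out for 14 lists below 0 and 5 above it.

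**Figure D4:**
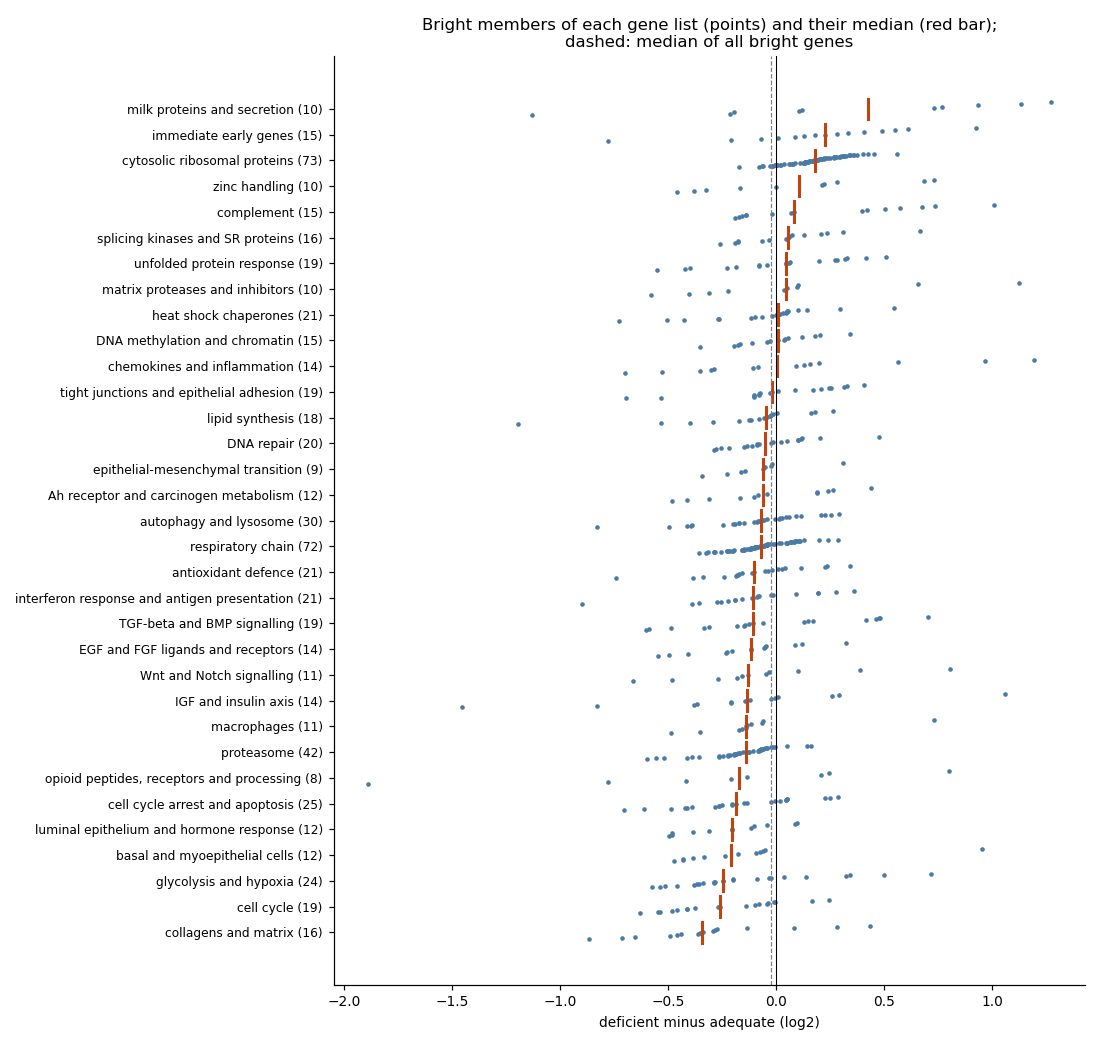
Log2 difference, deficient minus adequate, of each bright member (points) of the 33 gene lists with at least 5 bright members, with the median of each list as a red bar and that of all bright genes (-0.02) as a dashed line; the number of bright members is in parentheses. Ribosomal protein genes lie mostly above 0, proteasome genes mostly below it, and list medians run from -0.34 to 0.43.

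Genes of large protein complexes were measured in number. Of 73 cytosolic ribosomal protein genes, all bright, 64 were higher in deficient tumours, against 45.1% of all bright genes, with a median of 0.18. Their mean level was 7.71, 7.47, 7.91, 7.69 and 7.63 in deficient tumours and 7.55, 7.28, 7.43, 7.50 and 7.75 in control tumours. The ranges of the 2 diets overlapped. Rps6, a protein of the small subunit, differed by 0.56 and Rpl36a by 0.42. The size of this difference depended on the setting. The median was 0.07 under normexp, 0.06 in the deposited values, 0.09 under array weights and 0.04 under quantile normalization, where 48 of 73 were higher; leaving out deficient 3 gave 0.12. These are among the brightest genes of the array: at levels of 8 or more, 35 of 35 ribosomal protein genes and 4 of 9 other genes were higher, with medians of 0.21 and -0.01. That comparison by level was added after the values were seen.

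Genes of the proteasome, which degrades tagged proteins, lay on the other side. Of 42 bright ones 3 were higher, with a median of -0.14 that was -0.24 with normexp and -0.07 without control 3. Psma2, a subunit of the catalytic core, and Psmf1, a regulator, differed by -0.60 and -0.55, with intervals that excluded 0. Of 72 bright respiratory chain genes 21 were higher, with a median of -0.07 (-0.15 without control 2, -0.03 without control 4, -0.21 with normexp); Ndufs8 and Ndufs5 of complex I differed by -0.36 and -0.32. All 72 intervals lay within -1 to 1, so a change of more than 2-fold lay outside each of them.

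Energy and lipid metabolism were covered by a further pair of lists. Of 24 bright genes of glycolysis and the response to hypoxia 6 were higher, with a median of -0.24 that was -0.13 without deficient 1 and -0.39 without deficient 4. The glycolytic genes Tpi1, Pkm, Pgk1, Gapdh and Pfkm differed by -0.57, -0.52, -0.46, -0.36 and -0.36, while the hypoxia genes Adm and Vegfa differed by 0.50 and 0.33. In lipid synthesis 4 of 18 were higher (7 in the deposited values), and the median of -0.05, beside -0.02 for all bright genes, was -0.01 without control 4 and -0.12 without deficient 1. The fatty acid synthase gene Fasn differed by -0.53. The heart-type fatty acid carrier Fabp3, counted among the milk and secretory genes below, differed by -1.13 (interval from -2.08 to -0.18). Its levels were 0.83, 2.25, 0.15, 1.82 and 1.89 against 1.85, 2.65, 3.13, 3.18 and 1.78, which overlap.

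Proliferation genes were mostly on the lower side. Of 19 bright cell cycle genes 2 were higher in deficient tumours, with a median of -0.26; it was -0.09 without deficient 3 and -0.38 without control 2. Under array weights it was -0.12, with 7 of 19 higher. Within slides the mean of these genes differed by -1.20 to 0.69, lower in 2 slides and higher in 2. The cyclin gene Ccnd2 differed by -0.63, Cdk1 by -0.48, Mcm7, of the replicative helicase, by -0.41 and Bub3, of the spindle checkpoint, by -0.46, all with intervals across 0. The cyclin gene Ccnd1 and the replication clamp gene Pcna lay near 0, at -0.04 and -0.01.

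Among genes of cell cycle arrest and apoptosis, the cyclin-dependent kinase inhibitor Cdkn1a had levels of 3.20, 2.74, 3.06, 3.64 and 2.69 in deficient tumours and of 3.28, 4.06, 3.69, 3.91 and 3.45 in control tumours. Deficient 4 was the only deficient tumour above the lowest control tumours, and the difference was -0.61 (interval from -1.08 to -0.15); the gene's other probe differed by -0.85. The promoters of cell death Bad and Bak1 differed by -0.41 and -0.28, and the inhibitors Bcl2l1 and Birc3 by -0.49 and 0.25. Over this list 8 of 25 bright genes were higher. Their median was -0.19, with -0.26 without deficient 4 and -0.10 without deficient 1. Of 20 bright DNA repair genes 8 were higher, with a median of -0.05 (0.01 without deficient 1), and Polb, the polymerase of base excision repair, differed by 0.48.

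Luminal and basal genes were mostly on the lower side, with medians that depended on deficient 3. Of 12 bright genes of luminal cells and hormone response 2 were higher, with a median of -0.20 that was -0.03 without deficient 3. The receptor genes Erbb2 and Pgr (progesterone receptor) differed by -0.50 and -0.48, with intervals across 0, and Epcam and Krt18 by -0.10 and 0.09 (0.07 and -0.12 with the deposited values). Of 12 bright genes of basal and myoepithelial cells 1 was higher, the smooth muscle myosin Myh11 (0.96), with a median of -0.21 that was 0.00 without deficient 3. Under array weights 6 of the 12 were higher, with a median of 0.04. The keratin gene Krt5 differed by -0.43. Tight junction and adhesion genes were even, 9 of 19 being higher with a median of -0.02, among them F11r and the desmosomal plakophilin Pkp3 (-0.53).

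Milk protein and secretory genes were among those higher, 7 of 10 bright ones, with a median of 0.43 that was 0.18 without control 3. With normexp 5 of 10 were higher, with a median of 0.30. The casein gene Csn3 had levels of 7.17, 6.04, 8.38, 6.46 and 7.76 in deficient tumours and of 6.79, 5.56, 4.03, 7.22 and 6.53 in control tumours. The diets overlapped, with control 3 far below the rest, and the difference was 1.14 (interval from -0.08 to 2.35). Csn1s1 and Lalba, for alpha-lactalbumin, differed by 0.93 and 0.73, and Csn2 by -0.20. The lowest bright member was Fabp3 (-1.13). Dimmer members included the milk gene regulator Elf5 (1.14), well above background on 7 of 10 arrays.

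DMBA metabolism and oxidant defence held both directions. Of 12 bright genes of the aryl hydrocarbon receptor and carcinogen metabolism 5 were higher, with a median of -0.06 (-0.14 without deficient 4, 0.01 without control 2), and Akr7a2 and the glutathione transferase Gstt1 (-0.41) had the smallest p. Of 21 bright antioxidant genes 7 were higher, and the median of -0.10 was -0.01 without control 3. The glutathione synthetase gene Gss differed by -0.74, the peroxidase Gpx1 by -0.38, Nfe2l2, the transcription factor of this response, by -0.34, and the copper- and zinc-dependent superoxide dismutase Sod1 by 0.01. Enzymes of DNA methylation and chromatin were even, 8 of 15 being higher with a median of 0.01; all 15 intervals lay within -1 to 1.

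The matrix of the tumour stroma had the lowest median of the 33 lists. Of 16 bright genes of collagens and matrix 3 were higher in deficient tumours. The median of -0.34 became -0.57 without control 1 and -0.08 without control 4. Col18a1, Postn, Col1a1 and Fn1 differed by -0.86, -0.71, -0.65 and -0.34, and Dcn, for decorin, by 0.43, all with intervals across 0. The list's mean level ran from 2.93 to 3.75 in deficient tumours and from 2.60 to 4.48 in control tumours, so the control tumours were spread more widely.

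The medians of immune gene lists depended on single tumours. Of 11 bright macrophage genes 1 was higher, Cd14 (0.73), with a median of -0.14 that was -0.39 without deficient 3 and 0.11 without control 5. Genes of the interferon response and antigen presentation were higher for 5 of 21, with a median of -0.11 that was 0.04 without deficient 1, and the class II gene RT1-Bb differed by -0.90. Complement genes had 9 of 15 higher, with a median of 0.08 that was -0.11 without deficient 3. The 4 bright T cell genes, among them Cd3e (0.65), had a median of 0.17, or -0.14 without deficient 3.

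Red cell genes had the highest median of the 40 lists. Hbb-b1, a beta globin gene, had levels of 8.20, 5.88, 5.71, 6.24 and 5.97 in deficient tumours and of 5.01, 5.60, 3.50, 4.96 and 5.92 in control tumours. Deficient 1 was far above and control 3 far below the rest, and the remaining tumours lay between 4.96 and 6.24. The 3 bright members, Hbb, Hba-a3 and Hbb-b1, had a median of 1.39, which was 0.71 without deficient 1; globin probes may also bind transcripts of near-identical copies. The same tumour had the highest mean level of the 2 bright endothelial genes (1.80) and the 2 bright fat cell genes (3.72) among the 10. Of the fat cell genes, Cfd was at 6.08 in deficient 1 and Dgat2 at 1.36, with 1.14 to 1.82 for Dgat2 in control tumours. The part of blood, vessels or fat in any result here was not tested. Of 15 bright immediate early genes, which are induced within minutes of a stimulus, 12 were higher. Their median was 0.23, or 0.07 without deficient 1. With normexp 9 of 15 were higher (median 0.06), and under array weights 8 of 15 (median 0.03). Fos differed by 0.93, Klf6 by 0.61 and Egr2 by -0.78.

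Spread between tumours of the same diet exceeded the difference between diets for the most variable bright genes. Clca1, a secreted metalloprotease gene of mucous epithelia, had levels of 4.51, 3.40, 6.42, 1.56 and 5.85 in deficient tumours and of 4.36, 1.26, 1.46, 8.04 and 8.17 in control tumours. Igf2 had levels of -0.46, 0.41, 5.82, 1.75 and -0.06 against 4.14, 1.84, 0.70, 2.57 and 5.46. The complement gene C3 had levels of 1.01, 0.92, 6.40, 1.61 and -0.03 against 0.49, 2.25, 1.09, 2.31 and 4.44. Each of these genes spanned more than 6 log2 units over the 10 tumours with both diets in the span. The log2 differences were -0.31, -1.45 and -0.14 (0.42 for Clca1 with slide as a block, and 0.34 for C3 without the 3 dimmest arrays), with intervals of more than 2 units on either side, so sizeable changes of such genes could not be seen with 5 tumours a diet.

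**Figure D5:**
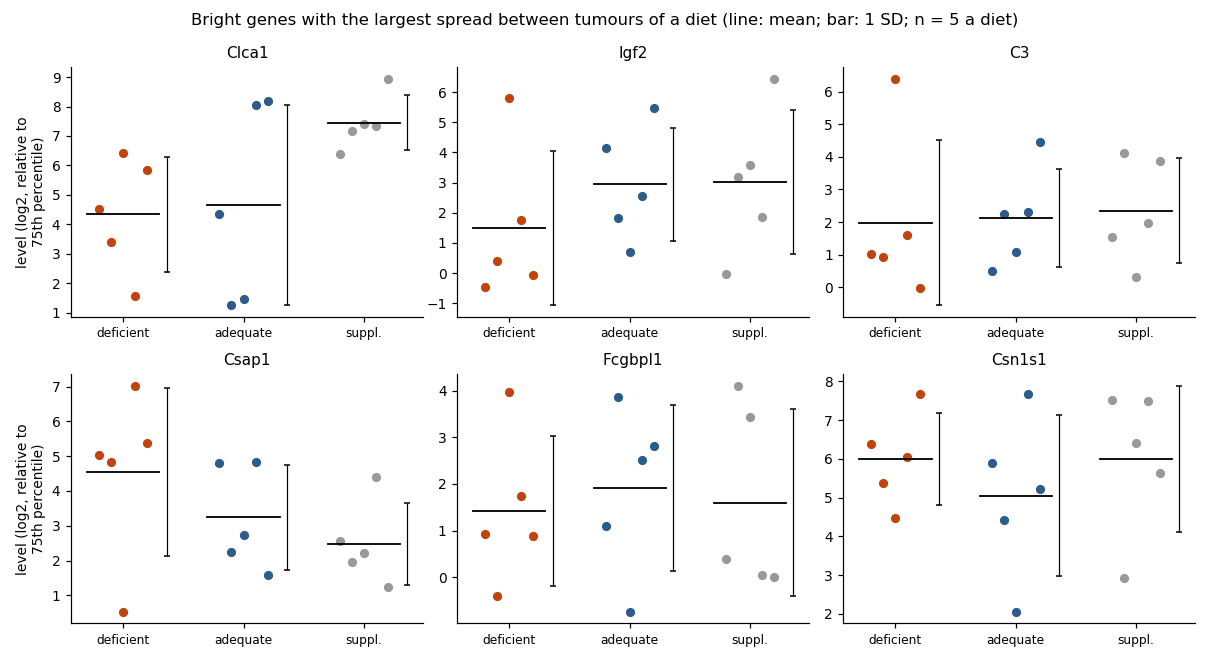
Level (log2, with the array's 75th percentile at 0) in each of 5 tumours from deficient, adequate and supplemented rats for the 6 bright genes with the largest spread within diets; lines are means and bars 1 SD. Deficient 3 is the highest deficient tumour for Igf2 (5.82) and C3 (6.40) and the lowest for Csap1 (0.52).

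Deficient 3, the array least like the others, differed from the median of the other 9 tumours by 5.31 in C3, 4.07 in Igf2, 3.56 in the ubiquitin-like gene Ubd, 3.49 in the collagenase Mmp13 and 3.37 in Ass1, of arginine synthesis. It was lower by -4.31 in Csap1, -3.26 in the arginine deiminase Padi3, -3.15 in Cited1, an oestrogen receptor co-activator, and -3.06 in the calpain Capn8. For C3, Igf2, Ubd, Mmp13 and Ass1 its level was above the highest of the other 9 tumours, and for the lower genes it was below the lowest. These genes were chosen by that difference after the values were seen and are a description of the tumour.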

How the data were processed

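RNA of 15 tumours had been hybridised to 1-colour (Cy3) Agilent rat arrays of 4 per slide, per the labels' protocols. The scanner files hold spot intensity, which per the file headers was background-subtracted and detrended by Agilent's Feature Extraction, release 11.5.1.1. Version 15.5 is the one listed in the submitters' processing notes. A table of log2 values the authors deposited for 30002 of 41012 probes served as an alternative; its normalization is not given in the sources used here.

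Spots marked as outliers and control spots were left out, spots of a probe averaged, and log2 processed signals taken minus each array's 75th percentile over non-control probes. The test took 21011 probes that stood well above background on 5 or more of 15 arrays (40 missing values). Names came from RefSeq (GRCr8) through probe accessions: 17502 probes (42.7%) matched 1 gene, 0 matched several and the others are unnamed here. The 3 diets entered 1 model per probe in limma 3.58.1 (R 4.3.3; lmFit, then eBayes with 12 residual degrees of freedom). Tests were two-sided, p-values were adjusted by Benjamini and Hochberg's method over every tested probe, 0.05 was the threshold, and the fit was tested on simulated data. A gene is shown by its probe with the highest mean. The number of arrays limits the precision.

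Genes were named by rule: the 12 bright genes with the smallest p in each direction, 4 and 4 dimmer ones, up to 2 bright members of each of 41 lists, the 6 bright genes with the largest spread within diets, and Penk, zinc, hormone receptor and epithelial genes. Genes with separate groups, those at least 1 log2 unit apart and other list members were named after their values were seen. Some genes are not reported here. The comparison, lists and rule were chosen with earlier results of these data known. Alternatives were normexp (offset 50; run on median spot signals, since mean signals were not used here), quantile normalization, the deposited values, 2 other filters, slide and replicate number as blocks, the 2 diets alone, array weights, limma-trend, and leaving out the 3 dimmest arrays or each tumour.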

Additional observations from a re-analysis of the deposited data

Results flagged for a closer look

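Within each group of 5 tumours, the highest or lowest level was set against the rest by its gap to the nearest tumour as a share of the group's range. Of 302 groups checked 26 had a tumour standing apart, and 7 of the 26 were deficient 3 and 5 deficient 1. About 15.1 would be due by chance if the groups were independent and unselected. Some groups share genes and some genes were chosen for their spread, so 26 cannot be weighed against 15.1.

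Deficient 3 stood above the other deficient tumours in C3 (6.40), C4a (3.05) and Cxcl1 (3.54) and in the mean level of complement genes (3.78) and of Wnt and Notch genes (2.31). It stood below them in the mean level of luminal genes (3.15) and of EGF and FGF ligands and receptors (1.33). Deficient 1 stood above the others in Hba-a3 (9.05), Hbb-b1 (8.20), red cell genes on average (6.79) and endothelial genes on average (1.80), and below them in RT1-Bb (2.04). Deficient 2 had the lowest Wnt4 (0.68) and the highest mean of skeletal muscle genes (2.18), and deficient 4 the lowest Wnt5a (-0.46).

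Among control tumours, control 5 stood apart in Wnt4 (2.54), Aif1 (3.60), Gamt (1.39) and the mean of adipocyte genes (2.57), all high, and in F11r (0.88) and Krt8 (2.77), both low. Control 1 was high in Ap3d1 (2.36) and Polb (0.77) and low in Ckb (2.89). Control 2 was low in Nipa2 (-2.28), and control 3 in the mean of milk protein genes (2.06).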

How the results depend on the processing

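The count of called probes was 0 in limma under 20 of 21 alternative settings and 1, the probe A_44_P277176, with only the 10 arrays of the 2 diets. Leaving out any 1 tumour gave 0 called probes, with a lowest adjusted p of 0.0958 (without control 5). Same-numbered tumours of the diets did not deviate together (correlations from -0.13 to -0.02), so replicate numbers were not taken as pairs; with the replicate number as a block 0 probes were called and 871 had an unadjusted p under 0.05. The share of bright genes higher in deficient tumours, 45.1%, was 35.4% under normexp and 47.3% in the deposited values. Of 111 named genes and probes, 10 changed direction in at least 1 setting, and none of these changes crossed the threshold. Tpsab1 was -0.18 (normexp) and -0.070 (deposited values); Mb was 0.10, 0.032, 0.40 and 0.25 with normexp, the deposited values, array weights and without the 3 dimmest arrays; Krt18 was -0.063, -0.11, -0.12 and -0.075 with normexp, quantile normalization, the deposited values and without those arrays. Flt1 was -0.084 with array weights and -0.055 without the dimmest arrays, C3 0.34 and Fcgbpl1 0.057 without them, Clca1 0.42 with slide as a block and Epcam 0.065 with the deposited values. With 1 tumour left out at a time, Zap70 ran from -0.17 to 0.41, Cfd from -0.018 to 1.26, Mb from -0.29 to 0.15, Clca1 from -1.16 to 0.57, C3 from -1.24 to 0.44 and Krt18 from -0.043 to 0.21. Among list medians, that of TGF-beta and BMP genes, -0.11 in the main fit, was 0.068, 0.040 and 0.059 without deficient 5, control 1 and control 3. The median of creatine metabolism, -0.39 in the main fit, was -0.18 with the deposited values. That of basal genes, -0.21 in the main fit, was 0.04 under array weights. Other list medians near 0 changed sign too. For matrix proteases and inhibitors the median was 0.05 in the main fit and -0.16 under array weights. The cause of these changes was not tested. Signal over background limits the dim genes, 5 tumours a diet limit the rest.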
